A study of Mus musculus with 8 samples.

Results

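The genes of transcription factors that set or hold the fate of helper T cells, Tbx21, Gata3, Rora, Foxp3, Bcl6, Prdm1, Maf, Runx1 and Runx3, were followed across parental cadmium (Cd) exposure and T cell stimulation. They were found by gene symbol, and all 9 are among the 27179 genes of the deposited table. The series holds 8 RNA sequencing libraries in 4 groups of 2, made from CD4+ T cells sorted from spleen and numbered replicates 6 and 7. Control offspring came from untreated parents. Cd offspring came from parents given 10 ppm CdCl2 in drinking water before mating, with exposure of the mothers up to birth. Cells of both were lysed without stimulation (0 hours, Ctr_Unstim and Cd_Unstim) or after 16 hours with anti-CD3/CD28 beads (Ctr_Stim and Cd_Stim). The beads engage the T cell receptor complex and the co-stimulatory receptor CD28. All mice were 8 weeks old and of the strain C.Cg-Foxp3tm2Tch/J, whose Foxp3 allele also yields a green fluorescent protein, so every group shares that allele. The labels name CD4+ T cells, and a figure legend of the study names the CD25-negative conventional fraction. The study counts each litter as an independent replicate. No source ties these libraries to litters or animals, so p-values measure only the spread between these libraries.

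Naive helper T cells take on different programmes after they meet antigen, and each programme is tied to a leading transcription factor. Tbx21 encodes T-bet of Th1 cells, Gata3 leads Th2 cells, Rora takes part in Th17 cells, Foxp3 defines regulatory T cells and Bcl6 defines follicular helper (Tfh) cells. Prdm1 encodes Blimp-1, which opposes Bcl6, Maf drives Il10, Il21 and Il4 in several subsets, and Runx1 and Runx3 bind DNA with the partner Cbfb and act at many of the same genes. Several of these factors restrain one another, and naive cells already express some of them.

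The library totals were 15542732 to 25486791 reads on genes, and a single factor had 97 to 4181 reads in a library. Levels are given as RPKM, reads scaled by the counted length of a gene and by the library total, so they can be set side by side between genes. Since RPKM is relative to the library total, a lower RPKM does not by itself show fewer transcripts per cell. The CD4 T cell markers Cd4, Cd3d, Cd3e, Cd3g, Cd5 and Cd28 summed to 1645 to 1827 RPKM in unstimulated and 1212 to 1248 RPKM in stimulated libraries. Of 20 marker genes of CD8, B, myeloid, NK and erythroid cells, 13 stayed under 1 RPKM in all 8 libraries, and Ms4a1 and Hba-a1 were at 0 throughout. Cd8a was at most 0.160 RPKM, while Cd8b1 read 9.40 to 11.7 RPKM. Klrd1, from the NK markers, read 4.63 to 15.8 RPKM and reached the highest level of the 20. In bulk RNA, fewer cells of a type and less RNA per cell cannot be told apart.

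The start regions of the factors are shown first, because several of these factors or their known activators could be looked for there by motif. RefSeq windows of GRCm38.p6, 250 bases before to 50 after an annotated start, matched 8 of the 9 factors (not Maf) with 12 windows. Positions count from the start base as 1, with no position 0 and with upstream positions negative. The Runx core TGTGGT, searched on both strands, was in 16.8% of all 32851 windows and in 2 of the 12. Those were 1 window of Runx1 and 1 of Runx3, the genes of the factors that bind this core. Each held it in 2 tandem copies, written ACCACA on the printed strand and marked in capitals. Among all windows, 1.81% held 2 or more. The Runx1 window lies at chr16:92826025-92826324 on the minus strand with matches at 29 and 37, and the Runx3 window at chr4:135120395-135120694 on the plus strand with matches at -134 and -126.
Runx1: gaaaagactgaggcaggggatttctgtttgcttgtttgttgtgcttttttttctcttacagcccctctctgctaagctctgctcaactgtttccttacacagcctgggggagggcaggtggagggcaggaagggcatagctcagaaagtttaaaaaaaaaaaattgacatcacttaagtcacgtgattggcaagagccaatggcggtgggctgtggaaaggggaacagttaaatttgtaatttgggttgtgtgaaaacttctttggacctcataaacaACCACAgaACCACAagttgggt
Runx3: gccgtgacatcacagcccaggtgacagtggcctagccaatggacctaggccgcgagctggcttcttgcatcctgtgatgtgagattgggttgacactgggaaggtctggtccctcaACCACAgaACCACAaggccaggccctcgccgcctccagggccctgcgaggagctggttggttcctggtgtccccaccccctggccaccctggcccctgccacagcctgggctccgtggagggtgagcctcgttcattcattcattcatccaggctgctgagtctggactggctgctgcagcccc

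The other windows of interest belong to the opposed pair Bcl6 and Prdm1. The STAT motif TTCNNNGAA, bound by the factors that cytokine receptors activate, was in 8.30% of all windows and in 3 of the 12. One Bcl6 window, chr16:23981234-23981533 on the minus strand, held it 3 times, at -168, -122 and -88, which 0.0335% of all windows matched. The match at -168 overlaps a copy of the NFAT core GGAAA, which was in 61.3% of all windows and 9 of the 12. The AP-1 motif TGANTCA was in 7.81% of all windows and in 1 of the 12, that of Prdm1 at chr10:44458699-44458998 on the minus strand, at -48. The GATA motif AGATAA was in 11.2% of all windows and 1 of the 12, a Foxp3 window. The NF-kB motif was in 1.63% of all windows and 0 of the 12. A match describes letters in the window and not binding. Capitals mark the STAT matches of Bcl6 and the AP-1 match of Prdm1.
Bcl6: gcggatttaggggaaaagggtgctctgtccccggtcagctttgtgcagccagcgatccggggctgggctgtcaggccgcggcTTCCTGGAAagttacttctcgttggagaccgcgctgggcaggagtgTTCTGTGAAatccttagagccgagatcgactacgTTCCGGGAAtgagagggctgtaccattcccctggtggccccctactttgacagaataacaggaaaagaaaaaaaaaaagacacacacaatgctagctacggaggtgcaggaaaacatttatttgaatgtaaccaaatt
Prdm1: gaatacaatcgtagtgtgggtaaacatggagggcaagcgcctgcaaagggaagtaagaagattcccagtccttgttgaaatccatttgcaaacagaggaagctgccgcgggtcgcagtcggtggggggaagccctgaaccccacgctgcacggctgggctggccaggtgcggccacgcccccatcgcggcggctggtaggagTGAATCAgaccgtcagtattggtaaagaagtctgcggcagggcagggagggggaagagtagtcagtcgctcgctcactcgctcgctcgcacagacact

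In unstimulated cells of control offspring, Gata3, Runx3 and Runx1 stood well above the other factors. The group means were 39.2 RPKM for Gata3, 27.9 for Runx3 and 25.9 for Runx1. Bcl6 followed at 6.70, Maf at 6.24, Rora at 5.01, Foxp3 at 4.96 and Tbx21 at 4.79 RPKM, and the libraries of neighbours in this run of 5 overlapped. Prdm1 was the lowest at 2.19 RPKM. Gata3 lay above 78.0% of the 12605 genes tested by its mean over all libraries, and Prdm1 above 15.7%.

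After stimulation Gata3 was still the highest factor and Prdm1 the lowest, in control and in Cd offspring. The order below Gata3 changed. In stimulated control cells Runx3 (16.4 RPKM) and Runx1 (16.3) overlapped, Bcl6 stood at 8.20, Foxp3 (6.64) and Tbx21 (6.57) overlapped, and Rora at 3.94 and Maf at 2.45 came next. In stimulated Cd cells Foxp3, at 7.45 RPKM, stood clear of Rora (4.45), Tbx21 (3.50) and Maf (2.85), whose libraries overlapped with their neighbours. Bcl6 was the fourth factor in all 4 groups, though in unstimulated cells its libraries overlapped with those of Maf.

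**Figure D1:**
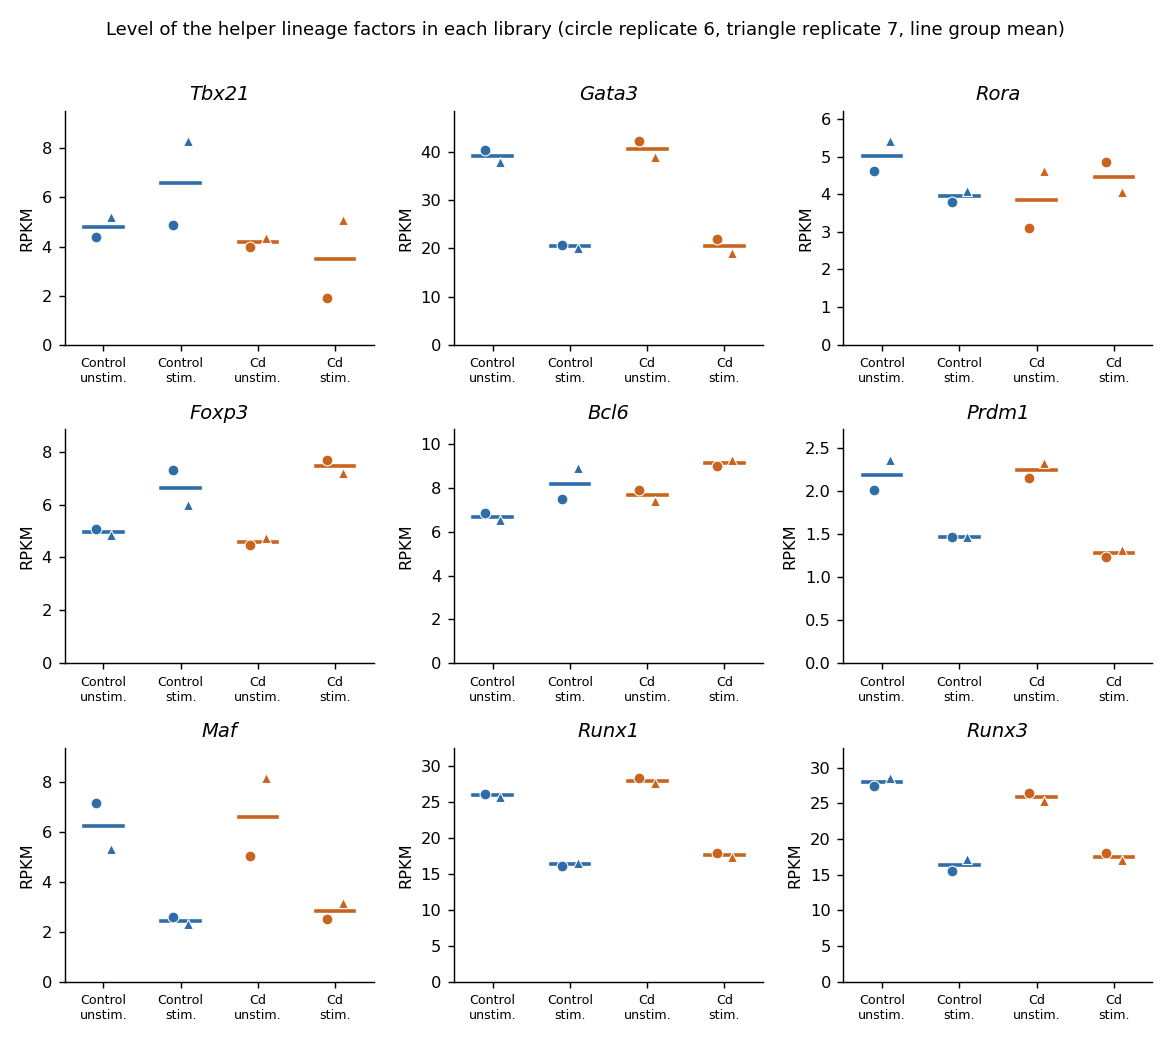
RPKM of each factor (y axis from 0, a scale for each panel) in the 8 libraries; circles are replicate 6, triangles replicate 7, blue control and orange Cd offspring, and lines group means. Gata3, Maf, Prdm1, Runx1 and Runx3 are lower in every stimulated than in every unstimulated library, and Tbx21 spreads from 1.91 to 5.09 RPKM within the stimulated Cd cells.

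The first comparison asked which factors differ between cells lysed at 0 hours and cells kept for 16 hours with beads. No library was cultured without beads, so receptor engagement and time in culture cannot be told apart. Gata3, Runx1, Runx3 and Maf fell in control offspring and again in Cd offspring. Prdm1 was lower and Foxp3 higher in stimulated cells of both, but they passed the cutoff only in Cd offspring. The cutoff was a limma adjusted p under 0.01, with Benjamini-Hochberg adjustment over 12605 genes. In control offspring Prdm1 was at a log2 fold change of -0.54 (adjusted p = 0.0136) and Foxp3 at 0.41 (adjusted p = 0.0137). The difference in response between the offspring was not called for Prdm1 (limma adjusted p = 0.709) or Foxp3 (0.558). By that cutoff 4 of 9 factors changed in control offspring, where 51.7% of all genes did, and 6 of 9 in Cd offspring, where 52.5% did. Under the fold and adjusted p cutoffs of the study for stimulation, which also ask for more than 2-fold, 1 of 9 was called in each, against 18.7% and 18.6% of all genes. That factor was Maf. These counts were near the share of all genes, and with 9 factors nothing is read from the gaps. Their median log2 fold change was -0.54 in control and -0.56 in Cd offspring, against 0.07 and 0.05 over all genes. The libraries of stimulated and unstimulated cells did not overlap for 8 of 9 factors in control and 7 of 9 in Cd offspring, where 83.1% of all genes did not overlap in each.

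Gata3, the Th2 factor (chr2:9857078-9887953, GRCm38.p6 here and for the genes that follow), fell in both kinds of offspring. Its levels were 40.4 and 37.9 RPKM in Ctr_Unstim and 20.8 and 20.1 in Ctr_Stim (replicates 6 and 7). In Cd offspring they were 42.2 and 39.0 RPKM before and 21.9 and 19.0 after stimulation. Every stimulated library lay below every unstimulated one. The log2 fold change was -0.93 (SE 0.079, limma adjusted p = 3.35e-05) in control and -0.99 (SE 0.079, adjusted p = 2.51e-05) in Cd offspring, just short of 2-fold. With median-of-ratios scaling it was -1.01 and -1.04, and with quantile normalization -1.07 and -1.14, so Gata3 was called there. Without Cd_Unstim 7 or Cd_Stim 6 the Cd value of Gata3 was -1.05 and -1.09, also past 2-fold.

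Maf (chr8:115703253-115706894), a bZIP factor of Tfh, Th17 and IL-10-producing cells, had the largest fall of the 9. It read 7.18 and 5.31 RPKM in Ctr_Unstim and 2.58 and 2.33 in Ctr_Stim. In Cd offspring it read 5.06 and 8.16 RPKM before and 2.53 and 3.16 after stimulation. The states did not overlap, but the unstimulated libraries differed by up to 1.61-fold within a group. The log2 fold change was -1.30 (SE 0.24, limma adjusted p = 0.00221) in control and -1.16 (SE 0.24, adjusted p = 0.004) in Cd offspring. The control call was lost without Ctr_Unstim 6 (log2 -1.08), Ctr_Stim 6 (-1.37) or Ctr_Stim 7 (-1.23), with adjusted p of 0.0101 to 0.0184, and the Cd call without Cd_Unstim 7 (-0.82), Cd_Stim 6 (-1.003) or Cd_Stim 7 (-1.31), with adjusted p of 0.0105 to 0.0278. The sum of the 4 NK and innate-like T cell markers moved with it, at 18.6 to 21.7 RPKM in unstimulated and 5.62 to 6.54 in stimulated libraries. Klrd1 was the highest of them, at 4.63 to 15.8 RPKM over all libraries, and Ncr1 was at most 0.0311 RPKM. The sum of the 5 myeloid markers was lower too, at 6.24 to 7.87 RPKM in unstimulated and 3.16 to 4.31 in stimulated libraries. Cd68 was the highest, and Lyz2 was at most 0.0487 RPKM. Mean Csf1r went from 0.183 to 0.201 RPKM in control and from 0.291 to 0.104 in Cd offspring. The summed CD4 T cell markers given above also fell. Among them mean Cd28 rose, from 104 to 145 RPKM in control and 104 to 138 in Cd offspring. Mean Cd5 rose from 177 to 191 RPKM in Cd offspring. The CD8 sums, mostly Cd8b1, were at 9.52 to 10.7 and then 10.3 to 11.8 RPKM, ranges that overlap. Mean Cd8a went from 0.139 to 0.117 RPKM in control and 0.0878 to 0.0855 in Cd offspring. The B and plasma cell sums, mostly Cd79a, were higher in stimulated libraries, at 3.26 to 3.80 and then 4.31 to 5.05 RPKM. Mean Cd79b was lower, going from 0.267 to 0.102 RPKM in control and 0.356 to 0.177 in Cd offspring. The part of these markers in the falls of Maf and the other factors was not tested.

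Runx1 (chr16:92601466-92826074) and Runx3 (chr4:135120645-135177990), paralogs that bind the same core sequence, the one shown above in both start regions, both fell in control and in Cd offspring. Runx1 read 26.1 and 25.7 RPKM in Ctr_Unstim, 16.0 and 16.5 in Ctr_Stim, 28.2 and 27.6 in Cd_Unstim and 17.9 and 17.3 in Cd_Stim. Its spread within groups was the smallest of the 9, and its log2 fold change was -0.66 (SE 0.051, limma adjusted p = 2.02e-05) in control and -0.67 (SE 0.051, adjusted p = 2.09e-05) in Cd offspring. Runx3, which silences Cd4 in CD8 cells and acts with T-bet in Th1 cells, read 27.4 and 28.5 RPKM in Ctr_Unstim and 15.5 and 17.3 in Ctr_Stim. In Cd offspring it read 26.4 and 25.3 before and 18.0 and 17.0 RPKM after stimulation. The log2 fold change of Runx3 was -0.77 (SE 0.069, limma adjusted p = 4.37e-05) in control and -0.56 (SE 0.069, adjusted p = 0.000236) in Cd offspring. Their partner Cbfb had a mean of 77.0 RPKM and a log2 fold change of 0.32 with an adjusted p of 0.0311 in control offspring, which did not pass. Zbtb7b, which encodes the CD4 lineage factor ThPOK that Runx3 opposes, fell by 1.07 on the log2 scale in control offspring (adjusted p = 8.36e-06).

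Prdm1 (chr10:44437174-44528558) and Bcl6 (chr16:23965050-23988866), whose start regions with the AP-1 and STAT matches are shown above, lay on opposite sides. Prdm1 read 2.01 and 2.36 RPKM in Ctr_Unstim and 1.46 and 1.47 in Ctr_Stim, and 2.15 and 2.33 in Cd_Unstim and 1.24 and 1.31 in Cd_Stim. Its log2 fold change was -0.54 (SE 0.15, limma adjusted p = 0.0136) in control offspring, which did not pass, and -0.77 (SE 0.15, adjusted p = 0.00261) in Cd offspring. The control value passed with median-of-ratios scaling (adjusted p = 0.00761), quantile normalization (0.00672), no trend (0.00293) and limma voom (0.00309). Without Cd_Unstim 7, Cd_Stim 6 or Cd_Stim 7 the Cd value was -0.71, -0.73 and -0.81, with adjusted p of 0.0161, 0.0196 and 0.0138. Bcl6 read 6.84 and 6.56 RPKM in Ctr_Unstim and 7.50 and 8.89 in Ctr_Stim, and 7.90 and 7.43 in Cd_Unstim and 8.999 and 9.28 in Cd_Stim. All stimulated libraries of Bcl6 were above the unstimulated ones of the same offspring, with a log2 fold change of 0.28 (adjusted p = 0.0337) in control and 0.25 (adjusted p = 0.0507) in Cd offspring, and neither passed.

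Foxp3 was higher in every stimulated library. It read 5.08 and 4.84 RPKM in Ctr_Unstim and 7.29 and 5.98 in Ctr_Stim, a log2 fold change of 0.41 (SE 0.11, limma adjusted p = 0.0137) that did not pass. In Cd offspring it read 4.48 and 4.72 before and 7.69 and 7.20 RPKM after stimulation, a log2 fold change of 0.68 (SE 0.11, adjusted p = 0.00110). Without Cd_Stim 6 this was 0.64 with an adjusted p of 0.0107, and without Ctr_Stim 7 the control value was 0.55 with 0.00641. By limma voom on the recovered reads Foxp3 passed in control offspring too, at 0.40 with an adjusted p of 0.00579. Foxp3 spans chrX:7579676-7595243, and 1435 bases of it overlap Ccdc22, a gene with a mean of 18.1 RPKM, so reads there cannot be told apart unless strand was counted, which is not stated. Ccdc22 had log2 fold changes of -0.17 (adjusted p = 0.115) and -0.14 (adjusted p = 0.18). Il2ra, which encodes CD25, read 1.80 to 2.19 RPKM in unstimulated and 94.0 to 117 RPKM in stimulated libraries.

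Rora (chr9:68653404-69388246) and Tbx21 (chr11:97098007-97115331) gave no change that passed. Rora, a nuclear receptor of Th17 and innate lymphoid cells, read 4.62 and 5.40 RPKM in Ctr_Unstim, 3.79 and 4.09 in Ctr_Stim, 3.10 and 4.61 in Cd_Unstim and 4.86 and 4.05 in Cd_Stim. Its log2 fold change was -0.34 (95% interval -0.79 to 0.12, limma adjusted p = 0.163) in control and 0.23 (-0.23 to 0.68, adjusted p = 0.332) in Cd offspring. Tbx21 read 4.38 and 5.19 RPKM in Ctr_Unstim, 4.87 and 8.28 in Ctr_Stim, 3.995 and 4.35 in Cd_Unstim and 1.91 and 5.09 in Cd_Stim. The log2 fold change of Tbx21 was 0.41 (95% interval -0.58 to 1.39, adjusted p = 0.425) in control and -0.40 (-1.39 to 0.58, adjusted p = 0.425) in Cd offspring. Without Cd_Stim 6 the Cd value turned to 0.28, and without Cd_Stim 7 it was -1.09 with an adjusted p of 0.0202.

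**Figure D2:**
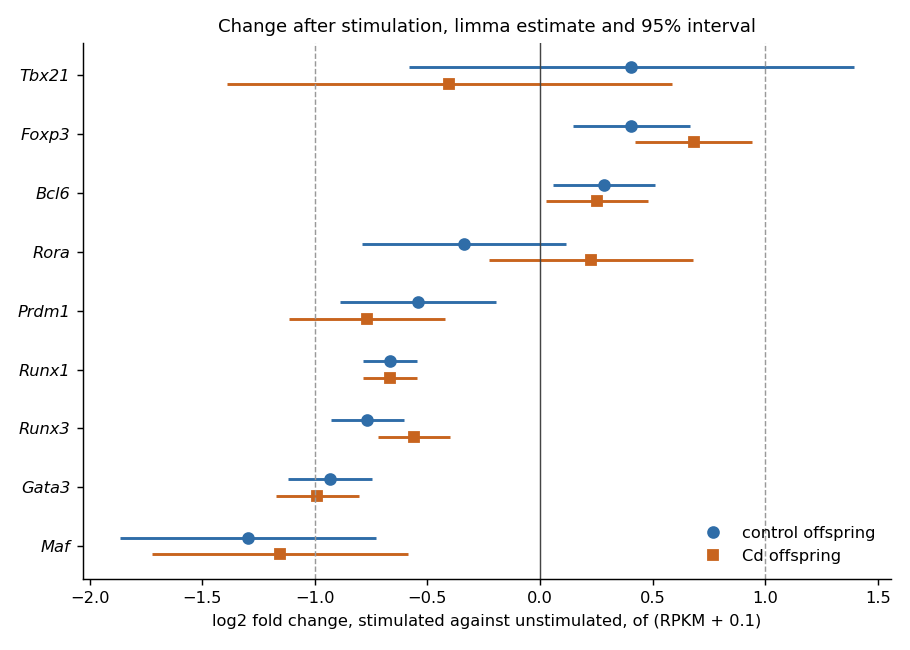
Log2 fold change of (RPKM + 0.1) between stimulated and unstimulated cells (x axis) for each factor, with 95% intervals from limma; blue circles are control and orange squares Cd offspring, and dashed lines mark 2-fold. Maf lies lowest at -1.30 and -1.16, Gata3 sits at -0.93 and -0.99, and the intervals of Tbx21 and Rora span 0 in both.

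The spread of Tbx21 between replicates was large for its level. Its within-group SD was 0.56 on the log2 scale, and of 3287 genes tested within 2-fold of its mean level, 2.89% had a larger one. For Maf the SD was 0.31 and the share of such genes 9.02%, while for Runx1 the SD was 0.027 and the share 96.0%. The 2 Cd_Stim libraries held 107 and 331 reads of Tbx21, a 2.67-fold difference in RPKM. After these values were seen, the Th1 genes were set beside Tbx21 in the same 2 libraries. Of 12 Th1 genes tested, 11 were higher in Cd_Stim 7 than in Cd_Stim 6, with a median log2 difference of 0.51, against -0.01 over all genes. Ccl5 differed by 1.21, Cxcr3 by 0.99 and Ifng by 0.84, and Stat4, by -0.14, was the exception. Other lists leaned the same way by less, with 10 of 12 Treg genes higher (median 0.08), 5 of 6 Th2 genes (0.13) and 3 of 4 Th17 genes (0.14), while 4 of 9 Tfh genes were. In Ctr_Stim, where Tbx21 was 1.70-fold higher in replicate 7, 7 of the 12 were higher there, with a median of 0.12. The NK and innate-like markers summed to 5.93 RPKM in Cd_Stim 6 and 6.54 in Cd_Stim 7, and the cause of the spread was not tested.

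Ratios of opposed or paralogous factors within a library ask how the balance between fates moves. Prdm1 to Bcl6 went from a mean log2 ratio of -1.65 ± 0.17 (SD, n = 4) in unstimulated to -2.57 ± 0.22 in stimulated libraries. That is a difference of -0.92 (exact permutation test, two-sided, p = 0.0286, the smallest that 4 against 4 allows, adjusted p = 0.0571 over 4 pairs), and all 4 stimulated libraries lay below all 4 unstimulated ones. Foxp3 to Rora went from 0.13 ± 0.28 to 0.73 ± 0.17, a difference of 0.60 with the same exact p and adjusted p and no overlap between states. With 4 pairs, the adjusted p falls below 0.05 only where at least 3 of them reach the smallest p. The pairs were chosen with earlier results of these data known. The ratios restate the changes of single factors given above, so their p-values are no separate support. In control and Cd offspring taken alone the difference was -0.82 and -1.02 for Prdm1 to Bcl6, and 0.74 and 0.46 for Foxp3 to Rora.

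Tbx21 to Gata3, the classical Th1 to Th2 balance, went from -3.13 ± 0.22 to -2.17 ± 0.92 (SD, n = 4), a difference of 0.96 (exact permutation p = 0.143, adjusted p = 0.190). It was 1.34 in control and 0.58 in Cd offspring. Cd_Stim 6, at -3.45, lay below every unstimulated library, and without it the difference was 1.39, a value given with no test since the library was singled out by its level. Runx3 to Runx1 stayed near equal levels, with a difference of 0.0015 (exact permutation p = 1), -0.10 in control and 0.10 in Cd offspring. In unstimulated cells the ratio of Runx3 to Runx1 was 1.05 and 1.11 for control offspring, against 0.936 and 0.918 for Cd offspring, and after stimulation the 2 control libraries gave 0.968 and 1.04 and the 2 Cd libraries 1.01 and 0.986.

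**Figure D3:**
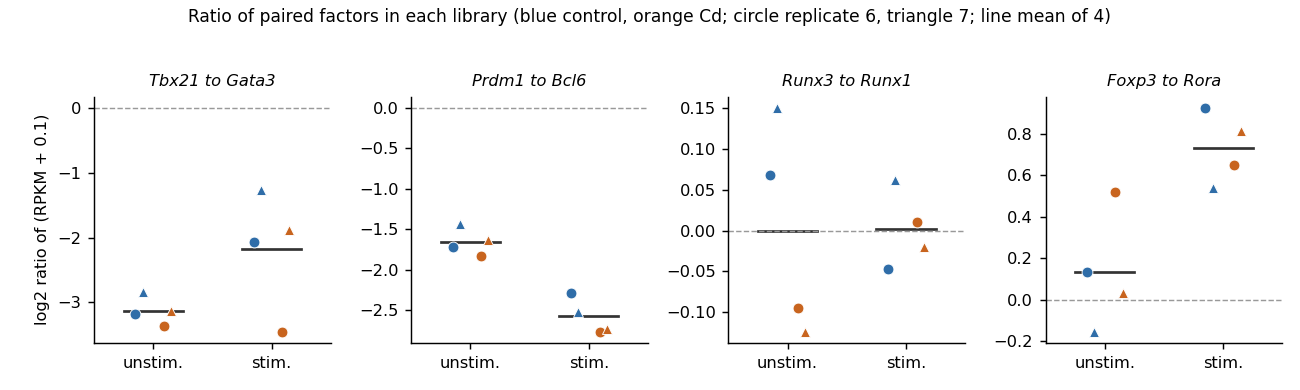
Log2 ratio of (RPKM + 0.1) of 2 factors within a library (y axis, a scale for each panel) in unstimulated and stimulated cells; blue is control, orange Cd offspring, circles replicate 6, triangles replicate 7, and lines the mean of 4 libraries. Prdm1 to Bcl6 falls from -1.65 to -2.57 without overlap, and Tbx21 to Gata3 in 1 stimulated Cd library lies at -3.45.

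The next comparisons asked whether parental Cd exposure changed the factors. By limma with Benjamini-Hochberg adjustment at an adjusted p under 0.05, 0 of 9 factors were called in unstimulated cells, where 0.896% of all genes were, and 0 of 9 had an unadjusted p under 0.05, against 13.9% of all genes. In stimulated cells 0 of 9 were called, where 0% of all genes were (0 to 9 genes under the other settings), and 1 of 9 had an unadjusted p under 0.05, against 3.28% of all genes. The other settings, and each library left out in turn, called 0 of 9 in both. The libraries of Cd and control offspring did not overlap for 6 of 9 factors in unstimulated cells, against 42.3% of all genes, and for 3 of 9 in stimulated cells, against 36.7%.

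The factor with an unadjusted p under 0.05 in stimulated cells was Tbx21. Its log2 fold change, Cd against control, was -0.999 (95% interval -1.99 to -0.01, limma adjusted p = 1), and the libraries overlapped. It was -0.31 without Cd_Stim 6, -0.62 without Ctr_Stim 7, -1.38 without Ctr_Stim 6 and -1.68 without Cd_Stim 7. In unstimulated cells Tbx21 was at -0.19 (95% interval -1.18 to 0.80). Rora was at -0.39 (-0.85 to 0.06, adjusted p = 0.415) in unstimulated cells, with both Cd libraries below both control libraries, and at 0.17 (-0.28 to 0.62) in stimulated cells.

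Bcl6 and Runx1 were higher in both Cd libraries than in both control libraries, in both states. Bcl6 was at 0.19 (95% interval -0.03 to 0.42) in unstimulated and 0.16 (-0.07 to 0.39) in stimulated cells, and Runx1 at 0.11 (-0.01 to 0.23) in each. Averaged over both states, the log2 difference was 0.18 for Bcl6 (95% interval 0.02 to 0.34, limma adjusted p = 0.647) and 0.11 for Runx1 (0.02 to 0.19, adjusted p = 0.570). Both were under an unadjusted 0.05, as 7.14% of all genes were, and 0 of 9 factors and 0.0238% of all genes were called. The factors with the narrowest intervals were Runx1, Runx3 and Gata3. For Gata3 the interval of the Cd difference was -0.13 to 0.24 in unstimulated and -0.19 to 0.18 in stimulated cells. For Runx3 it was -0.27 to 0.05 and -0.06 to 0.26, for Foxp3 -0.37 to 0.15 and -0.09 to 0.43, for Prdm1 -0.31 to 0.38 and -0.53 to 0.16, and for Maf -0.51 to 0.63 and -0.37 to 0.77.

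**Figure D4:**
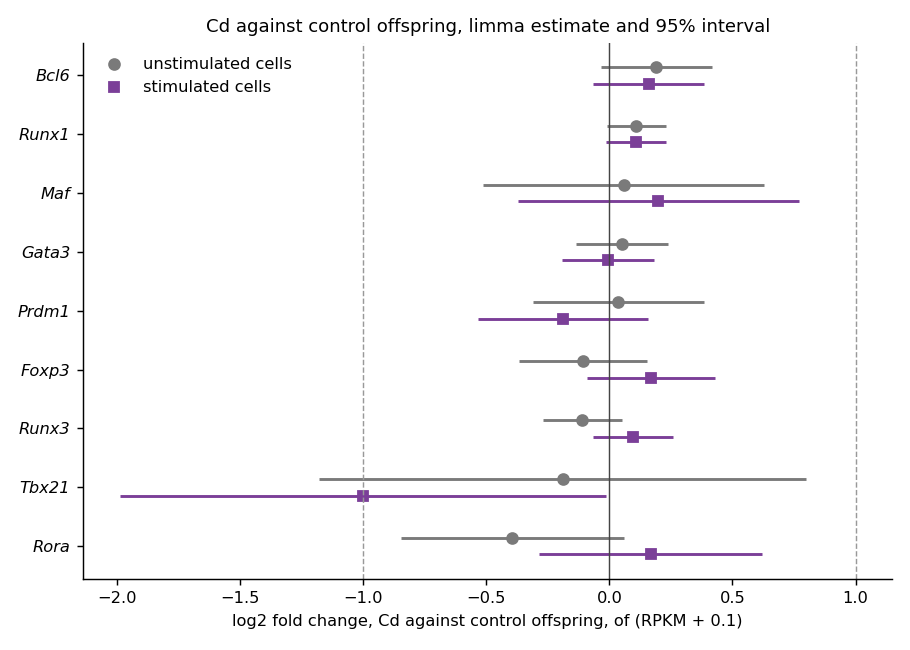
Log2 fold change of (RPKM + 0.1) between Cd and control offspring (x axis) for each factor, with 95% intervals from limma; grey circles are unstimulated and purple squares stimulated cells, and dashed lines mark 2-fold. All intervals of unstimulated cells span 0, and in stimulated cells that of Tbx21, from -1.99 to -0.01, is the exception.

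Whether the response to stimulation itself differed between Cd and control offspring was tested with the interaction contrast. By limma at an adjusted p under 0.05, 0 of 9 factors were called, against 0.357% of all genes, and the lowest adjusted p was 0.511. It belonged to Runx3, whose fall was smaller in Cd offspring by 0.21 on the log2 scale (95% interval -0.02 to 0.43). Rora had the largest positive difference, 0.56 (-0.08 to 1.20, adjusted p = 0.519), and Tbx21 the largest negative one, -0.81 (-2.21 to 0.59, adjusted p = 0.643). For Foxp3, called changed by adjusted p in Cd but not in control offspring, the difference was 0.28 (-0.09 to 0.64, adjusted p = 0.558), and for Prdm1 it was -0.23 (-0.72 to 0.26, adjusted p = 0.709). For Runx1 it was -0.00063 (-0.17 to 0.17).

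The genes of the programmes that these factors lead moved in their own ways after stimulation. Of 12 Th1 genes tested in control offspring, 1 rose and 6 fell (over 2-fold, limma adjusted p under 0.01), against 11.5% of all genes that rose and 7.17% that fell. The list median was -0.96. The chemokine gene Ccl5 fell by 2.87, the chemokine receptor gene Cxcr3 by 2.07 and Il18r1 by 1.61 on the log2 scale, while Il12rb1, a chain of the IL-12 receptor, rose by 2.20. Tbx21, at 0.41, gave no change that passed beside them. NK and innate-like cells also express several of these genes. The sum of their markers given above was lower in stimulated libraries, at 5.62 to 6.54 against 18.6 to 21.7 RPKM. The part of these cells in the result was not tested.

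More Treg genes rose than fell beside Foxp3. Of 12 tested in control offspring, 7 rose and 0 fell by limma at those thresholds, against 11.5% and 7.17% of all genes. Their median log2 fold change was 1.34. Il2ra rose by 5.76 and Ikzf4, a zinc finger factor of Treg cells, by 2.64 on the log2 scale. Lrrc32, which presents latent TGF-beta, had 0 reads in both Ctr_Unstim libraries and 2.49 and 2.53 RPKM in Ctr_Stim, at least 54.7-fold higher against a floor of 3 reads per library. Il2ra, Ctla4 and Tnfrsf18 are also known as activation genes of conventional T cells. In Cd offspring 7 rose and 0 fell, against 11.4% and 7.24% of all genes, with a median of 1.52. Foxp3 itself rose by 0.68 in Cd offspring, and its 0.41 in control offspring did not pass.

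Of 6 Th2 genes tested beside Gata3, 2 rose and 1 fell in control offspring, where 11.5% of all genes rose and 7.17% fell. Gfi1, a repressor that favours Th2 growth, rose by 2.69 and Ccr4, a Th2 chemokine receptor gene, by 1.99, while Nfil3 fell by 1.56. Il5 and Il13 were too low to be tested. Of 4 Th17 genes tested beside Rora, 2 rose and 0 fell in control offspring. Ahr, the aryl hydrocarbon receptor gene, rose by 1.76, and Ccr6, a chemokine receptor gene with a mean of 0.563 RPKM, by 2.01. Without Ctr_Unstim 7, Ctr_Stim 6 or Ctr_Stim 7, 1 of the 4 was called, as with a pseudocount of 1, no filter, the filter at 1 RPKM or only the libraries compared. Il17a, Il17f, Il22 and Il23r were too low to be tested.

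Of 9 Tfh genes tested beside Bcl6, 3 rose and 1 fell in control offspring, where 11.5% of all genes rose and 7.17% fell. Cd200 rose by 2.80, the inhibitory receptor gene Pdcd1 by 2.04 and the co-stimulator gene Icos by 1.63, while Tox fell by 1.08. Il21 and Ascl2 were too low to be tested. Of 17 partners and regulators tested, 4 rose and 3 fell. Irf4, a factor induced by receptor signals that also activates Prdm1, rose by 7.63, Stat5a, which transmits IL-2 signals, by 1.69 and Id3 by 1.63, while Foxo1, a factor of naive cells, fell by 1.64, Id2 by 1.38 and Zbtb7b by 1.07. The naive-cell factors Tcf7, Lef1 and Satb1 passed the adjusted p but not 2-fold, with log2 fold changes of -0.77, -0.99 and -0.74.

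In Cd offspring the same lists gave 1 higher and 6 lower of 12 Th1 genes, 2 and 1 of 6 Th2, 1 and 0 of 4 Th17, 3 and 1 of 9 Tfh and 4 and 2 of 17 partners and regulators, where 11.4% of all genes were higher and 7.24% lower. The Th17 count in Cd offspring ran from 0 (pseudocount of 1) to 2 (limma voom, or only the libraries compared). Of all these genes, Tnfrsf18 alone was called for Cd in unstimulated cells, with a log2 fold change of -0.28 (limma adjusted p = 0.0364), and it was not called with any library of that comparison left out, without a filter, with quantile normalization, under the replicate block, without the trend, by limma voom or with only the libraries compared. In stimulated cells none was called.

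**Figure D5:**
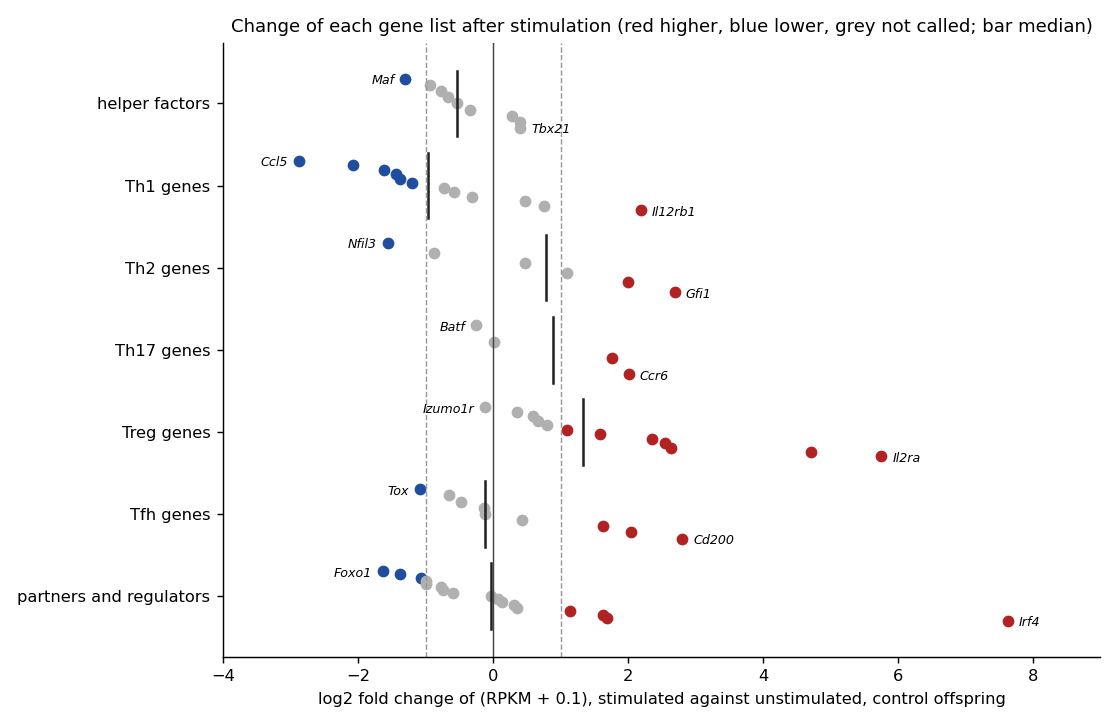
Log2 fold change of (RPKM + 0.1) after stimulation in control offspring (x axis) for the genes of each list (rows); red points were called higher, blue lower and grey not called, black bars are list medians and dashed lines mark 2-fold. The 9 factors lie between -1.30 and 0.41, a narrower span than the Treg genes, up to 5.76, or the partners and regulators, up to 7.63.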

How the data were processed

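Libraries (KAPA mRNA HyperPrep) were grouped by the sample labels. Reads were aligned by the authors with subread (mm10 build), and featureCounts gave the reads per RefSeq transcript. Versions and the use of strand are not given in the sources used here. The deposited values are log2(RPKM + 1) with 0.0001 added, a scale read from the values, and the authors' step from counts to RPKM is not described. They were turned back into RPKM. The whole reads behind each value, the counted length of each gene and the total of each library followed from the smallest steps in the table for 17794 of 17794 genes above 0 in at least 2 libraries, and these totals give the depth. Of the gene identifiers, 25275 matched RefSeq (GRCm38.p6).

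The 12605 genes averaging at least 0.5 RPKM were fitted on log2(RPKM + 0.1) in limma 3.58.1 (R 4.3.3), a scale on which the change of low genes is understated. The fit used all 8 libraries, 4 group means (4 residual degrees of freedom), a trend in the prior spread and Benjamini-Hochberg adjustment. Stimulation was called at an adjusted p under 0.01 and 2-fold, cutoffs the study applied to lncRNAs with another tool and with a further minimum on expression that was not used here, and Cd contrasts at an adjusted p under 0.05. With 2 libraries against 2, an exact permutation test cannot go below p = 0.333. Ratios were tested with exact permutation of 4 against 4 libraries.

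The factors, gene lists and pairs were chosen with earlier results of these data known. All 9 factors are described. From each list up to 3 genes higher and 3 lower with the largest fold among those called at a mean of at least 1 RPKM are named, with genes on which a result turns. Further list genes were named after their values were seen, and some list genes are not reported here. The scripts were tested on simulated data. Each result was recomputed with a pseudocount of 0.5 or 1, without a filter or with one at 1 RPKM, after quantile normalization or median-of-ratios scaling, with a replicate block, without the trend, by limma voom on the recovered reads, on only the libraries compared, and with each library left out. Tables and plots used Python 3.11.15, numpy 2.4.6, pandas 2.3.3 and matplotlib 3.10.9.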

Additional observations from a re-analysis of the deposited data

How the results depend on the processing

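Of 810 repeats of the factors' fold changes, 761 kept their direction and side of the threshold, 8 lost a call (all Maf), 6 gained one (all Gata3) and 35 turned sign, none of the 35 past a threshold. The number of factors called after stimulation was 2 in control offspring with median-of-ratios scaling and 2 with quantile normalization, and 2 and 2 in Cd offspring, Gata3 being the second. In Cd offspring it was 0 with a pseudocount of 1 (Maf at -0.96) and 0 with only the libraries compared (Maf adjusted p = 0.0116). With each library left out it ran from 0 to 1 in control and 0 to 1 in Cd offspring, and the number of factors past the adjusted p alone in Cd offspring from 3 (without Cd_Stim 6) to 6. Quantile normalization shifted the median log2 change of all genes in control offspring by -0.10. Signs turned for Prdm1 (Cd in unstimulated cells, -0.015 with quantile normalization), Gata3 (Cd in stimulated cells, 0.0066 with median-of-ratios scaling and 0.0044 with quantile normalization), Runx3 (Cd averaged, 0.0017 with quantile normalization), Runx1 (difference in response, 0.028 with median-of-ratios scaling) and Runx3 to Runx1 (-0.10 in control offspring alone). The cause was not tested.

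With 1 library left out in turn, the lone library of a group being assumed to vary like the others, these values changed sign within their range. For stimulation in Cd offspring, Tbx21 ran from -1.09 to 0.28 and Rora from -0.055 to 0.51. For Cd in unstimulated cells, Gata3 ran from -0.0062 to 0.11, Prdm1 from -0.074 to 0.15 and Maf from -0.28 to 0.40. For Cd in stimulated cells Gata3 ran from -0.11 to 0.094. For Cd averaged over both states, Gata3 ran from -0.027 to 0.073, Rora from -0.25 to 0.027, Foxp3 from -0.038 to 0.10, Maf from -0.041 to 0.30 and Runx3 from -0.045 to 0.031. For the difference in response, Gata3 ran from -0.16 to 0.043, Bcl6 from -0.15 to 0.090, Maf from -0.20 to 0.48 and Runx1 from -0.026 to 0.025. The change in Runx3 to Runx1 ran from -0.040 to 0.052.

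The count of all genes called, which gives the background, ranged over the alternatives that keep all libraries from 14 (no trend) to 212 (limma voom) around 113 for Cd in unstimulated cells, with 60 under the replicate block and 65 without a filter. It ranged from 4 (no trend) to 113 (limma voom) around 45 for the difference in response, with 28 without a filter and 25 under the replicate block, and from 2 to 29 around 3 for Cd averaged, with 8 without a filter. With 1 library left out, Cd in unstimulated cells gave 19 (without Ctr_Unstim 6), 61 (Cd_Stim 6 or Cd_Stim 7), 67 (Ctr_Unstim 7) and up to 105. The difference in response gave 2 (Cd_Stim 7), 3 (Ctr_Stim 6), 27 (Ctr_Unstim 6), 28 (Ctr_Stim 7) and up to 63. Cd averaged gave 0 (Ctr_Unstim 7, Ctr_Stim 7 or Cd_Stim 6), 1 (Ctr_Stim 6 or Cd_Stim 7), 5 (Ctr_Unstim 6) and 13 (Cd_Unstim 7). With the replicate number as a block, 1 factor was called after stimulation in control and 1 in Cd offspring and 0 in each other comparison. Same-numbered libraries of the 2 states deviated together only weakly, with correlations across genes of 0.064 in control and 0.0085 in Cd offspring. Over all pairs of groups, those across offspring included, the correlations lay between -0.11 and 0.064. What the numbers stand for is not given, so no pairing was assumed. Rora, Prdm1 and Tbx21 had 97 to 411 reads per library, and the part of depth in their spread was not tested.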

Other observations

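Each factor was compared by its profile over the 8 libraries with 11551 other genes with a mean of at least 1 RPKM, using the root mean square difference between centred log2(RPKM + 0.1) profiles. This is a description, and the points share libraries and depth. The profiles most like Runx3 were those of Stk38 (difference 0.023) and Spice1 (0.030), and most like Runx1 those of Fbxo9 (0.029) and Lck, the kinase that starts T cell receptor signalling (0.032). Zfat (0.042) and Tulp4 (0.057) were nearest to Prdm1, Arhgap25 (0.054) and Numb, a Notch inhibitor (0.057), to Gata3, and Prkag2 (0.060) and Acp6 (0.064) to Bcl6. Gm6710 (0.070) and Stk3 (0.073) were nearest to Foxp3, Anapc13 (0.11) and Rpl27a (0.13) to Rora, and Trim30d (0.16) and Smpdl3a (0.16) to Maf. Tbx21 had the least close neighbours, Mir3098 (0.31) and the interferon-induced Ube2l6 (0.32).

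Of the Tfh genes, 9 of 9 tested were higher in Cd_Unstim 7 than in Cd_Unstim 6, with a median log2 difference of 0.23 against -0.02 over all genes. Maf, which differed by 0.68 between these libraries, was higher in the same one, while Bcl6 differed by -0.09. In Cd_Unstim 7, 4 of 4 Th17 genes (median 0.21), 9 of 12 Th1 genes (0.10) and 7 of 12 Treg genes (0.12) were also higher, and 2 of 6 Th2 genes. In Ctr_Unstim 2 of the 9 were higher in replicate 7, where Maf differed by -0.43. These sets were looked at after the values were seen and were not tested.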
